A study of Mus musculus with 6 samples.

Results

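The 10 genes of apolipoproteins and lipoprotein assembly (Apob, Mttp, Apoe, Apom, Apoa1, Apoa4, Apoh, Apoc1, Apod and Azgp1) were followed in whole kidney from 3 C57BL/6 mice (B6) and from 3 of the BALB/c strain. The 10 genes were picked by symbol from 23282 rows, and each symbol occurred on 1 row. They had been chosen with the strain difference of these libraries known, so their own B6 and BALB/c values are given as a description and without a test. Both strains are inbred laboratory lines, no treatment, transgene or deletion is recorded for either, and age and sex are not stated in the labels. The series concerns strain differences of kidney innate lymphoid cells, and these libraries compare the RNA of the entire organ between B6 and BALB/c.

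Lipoproteins carry triglyceride, cholesterol and phospholipid through blood and lymph. Apolipoprotein B is the structural protein of the large triglyceride-rich particles, and the microsomal triglyceride transfer protein, encoded by Mttp, loads lipid onto it in the endoplasmic reticulum together with the protein disulfide isomerase P4hb. Smaller apolipoproteins such as A-I, A-IV, C-I and E exchange between particles, activate or inhibit enzymes and bind receptors. The liver and intestine are the best known sources, and proximal tubule cells of the kidney take up filtered apolipoproteins through megalin and cubilin.

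Libraries were QuantSeq libraries, which read mainly the 3′ ends of polyadenylated transcripts. Levels are read counts scaled per library (CPM), recovered from deposited log2(CPM + 1) values. Libraries held 8310798 to 10416332 recovered reads, and 1 read was worth 0.0968 to 0.118 CPM. Summed over all genes, levels ran from 980188 CPM in BALB/c replicate 2 to 1043599 CPM in B6 replicate 3. The deposited scaling was therefore not to the total of the recovered reads alone. Differences are B6 minus BALB/c on the log2(CPM + 1) scale, which understates differences of genes with low levels. Xist was read in all 6 libraries, at 104 to 164 CPM in B6 and 188 to 193 CPM in BALB/c, without overlap. The Y-linked genes Uty, Kdm5d and Eif2s3y had 0 reads in all 6. Ddx3y, also Y-linked, had 2 reads summed over B6 and 8 over BALB/c, all 8 of them in BALB/c replicate 1. Over all genes, 1211 of 13317 tested differed between the strains, 656 higher and 555 lower in B6 (limma, Benjamini-Hochberg adjusted p under 0.05). Of the 10 genes, 8 passed the level filter (a log2 value of at least 1 in at least 3 libraries); Apod and Apoh did not. Of the 8, 4 lay past this threshold, 3 higher and 1 lower in B6, beside 9.09% of all tested genes (4.93% higher and 4.17% lower), and B6 and BALB/c values were fully apart in 5, beside 25.4% of all tested genes. Nothing is read from these counts, since the contrast had a part in the choice of the genes. In whole tissue, fewer cells of a type and less RNA per cell cannot be told apart.

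**Figure D1:**
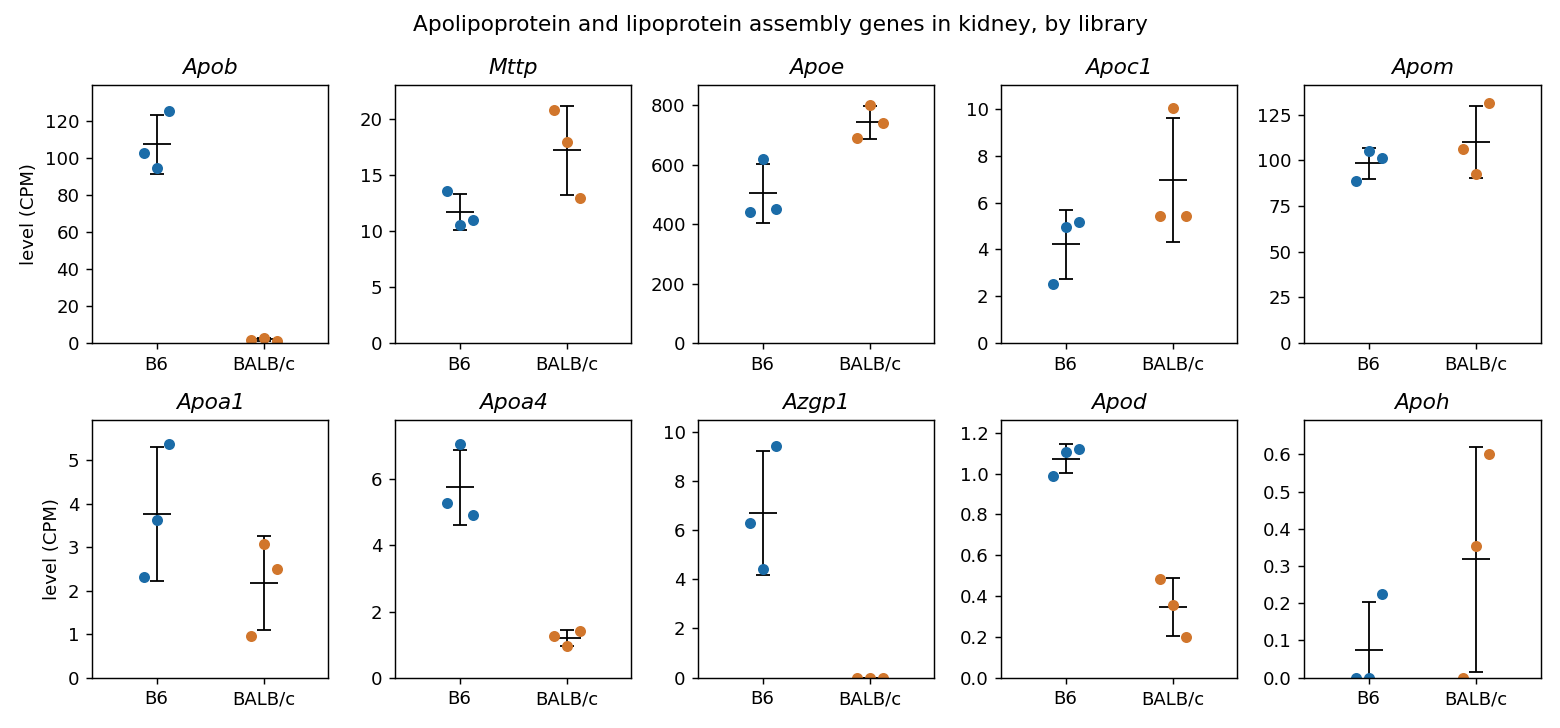
Level in CPM (vertical axes, each from 0) of the 10 genes in every library of B6 and BALB/c kidney; points are libraries and bars are the mean ± SD of 3. Apob lies between 94.9 and 125.6 CPM in B6 kidneys and at most at 2.71 CPM in BALB/c, and Azgp1 has reads in B6 only.

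Apob had by far the highest B6 to BALB/c ratio of the genes with reads in both strains. It stood at 102.7, 94.9 and 125.6 CPM in the B6 libraries, against 1.55, 2.71 and 1.30 CPM in the BALB/c libraries. These levels rest on 933, 941 and 1120 reads in B6 and on 16, 23 and 13 reads in BALB/c. The strains did not overlap, and the lowest B6 library lay far above the highest BALB/c library. The mean was 107.7 ± 15.97 CPM in B6 kidneys and 1.85 ± 0.753 CPM in BALB/c kidneys (SD, n = 3 each), a ratio of 58.1 and a log2 difference of 5.27 ± 0.22 (SE). Apob (chromosome 12, 7977648 to 8016835, plus strand, GRCm38) is a protein-coding gene of 29 exons in its longest transcript of 13934 bases. None of its exons overlapped another gene, and 0% of the 50-base words of its 3′ end occurred in a transcript of another gene. Both strains were processed against mm10, which is a B6 sequence, and any loss of BALB/c reads to mismatches with it was not tested for any of the genes.

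The promoters of Apob and Azgp1, with the 2 highest differences, and of Mttp, the assembly partner of Apob, are given as 300 bases of the B6 reference (RefSeq, GRCm38.p6), 250 before and 50 after the annotated start. The Apob window is chr12:7977427-7977726 on the plus strand, the Azgp1 window chr5:137981271-137981570 on the plus strand and the Mttp window chr3:138143369-138143668 on the minus strand. Capitals mark matches to any of the 3 words reported here, searched on both strands. The words were CAAAGTC, part of the recognition sequence of the hepatic nuclear factor HNF4, the TATA-box word TATAAA, and AAAGGTC. The last, part of the direct-repeat elements of nuclear receptors and not a full repeat, was added after the Apob promoter had been seen.
Apob: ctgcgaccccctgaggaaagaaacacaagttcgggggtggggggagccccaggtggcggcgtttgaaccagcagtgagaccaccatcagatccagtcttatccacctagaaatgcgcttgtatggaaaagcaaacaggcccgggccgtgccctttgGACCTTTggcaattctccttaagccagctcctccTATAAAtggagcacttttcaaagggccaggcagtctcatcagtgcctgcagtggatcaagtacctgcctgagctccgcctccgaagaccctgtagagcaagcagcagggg
Azgp1: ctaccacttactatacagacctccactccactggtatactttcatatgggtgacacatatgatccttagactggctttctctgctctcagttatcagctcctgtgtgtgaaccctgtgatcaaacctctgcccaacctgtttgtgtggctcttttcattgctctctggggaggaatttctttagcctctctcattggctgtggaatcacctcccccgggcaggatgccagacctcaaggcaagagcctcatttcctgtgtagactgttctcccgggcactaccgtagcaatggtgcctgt
Mttp: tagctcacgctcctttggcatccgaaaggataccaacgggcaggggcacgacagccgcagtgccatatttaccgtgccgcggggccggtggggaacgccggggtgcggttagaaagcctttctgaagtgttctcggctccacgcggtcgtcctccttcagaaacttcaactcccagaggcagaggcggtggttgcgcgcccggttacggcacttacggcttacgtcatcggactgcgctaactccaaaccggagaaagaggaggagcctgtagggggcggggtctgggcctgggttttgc

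The Apob window held TATAAA with its first base at -60 and AAAGGTC on the opposite strand at -94 relative to the RefSeq start. That start lies downstream of the gene start given above (7977648, from GENCODE), so both words lie nearer to the GENCODE start. The Azgp1 and Mttp windows held none of the 3 words. The Mttp window lies inside the gene as annotated by GENCODE, and sequence around the GENCODE 5′ end (138144968) was not searched. Windows of 9 of the 10 genes were in the table, and Apoc1 was missing from it. CAAAGTC was found in 0 of the 9 genes and in 4.44% of all 32851 promoters, TATAAA in 2 of the 9 and in 13.6% of all, and AAAGGTC in 2 of the 9 and in 3.77% of all. Besides Apob, the gene with matches was Apoe, which has 3 windows. The sequences are those of B6, and BALB/c sequence was not analysed here.

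Mttp, whose product lipidates apolipoprotein B, did not share the direction of Apob. It stood at 13.5, 10.6 and 10.98 CPM in B6 kidneys and at 20.8, 17.9 and 12.9 CPM in BALB/c. The strains overlapped, since the lowest BALB/c library lay below the highest B6 library. The mean was 11.7 ± 1.604 CPM in B6 kidneys and 17.2 ± 3.99 CPM in BALB/c kidneys (SD, n = 3 each), a log2 difference of -0.50 ± 0.23 (SE). Mttp lies on chromosome 3 (138089854 to 138144968, minus strand), and its exons overlap those of Trmt10a and Gm43691 on the other strand. Trmt10a, a tRNA methyltransferase gene, had a log2 difference of -0.16 (limma adjusted p = 0.746).

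Azgp1 encodes zinc-alpha-2-glycoprotein, a secreted lipid-mobilising protein with the fold of MHC class I molecules. It stood at 6.28, 4.43 and 9.42 CPM in B6, from 57, 44 and 84 reads, and had 0 reads in each of the 3 BALB/c libraries. The mean in B6 was 6.71 ± 2.52 CPM (SD, n = 3). A floor of 3 reads over the 3 BALB/c libraries together is 0.104 CPM, so the level was at least 64.4-fold higher in B6; this floor covers counting error only. Its fitted log2 difference of 2.90 ± 0.39 (SE) depends on the pseudocount and is no bound. Azgp1 passed the level filter through its B6 libraries alone. The gene lies on chromosome 5 (137981520 to 137990233, plus strand), its exons overlap no other gene, and 0% of its 3′ end words are shared.

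Apoa1, Apoc3, Apoa4 and Apoa5 lie side by side on chromosome 9. Apoa4 encodes apolipoprotein A-IV, a component of intestinal chylomicrons and of high-density lipoprotein. It stood at 5.29, 7.06 and 4.93 CPM in B6 kidneys and at 1.26, 0.944 and 1.40 CPM in BALB/c. The strains did not overlap, and the log2 difference was 1.61 ± 0.35 (SE), with means of 5.76 ± 1.14 and 1.20 ± 0.235 CPM in B6 kidneys and BALB/c (SD, n = 3 each). Its exons (46240696 to 46243459, plus strand) overlap the unnamed genes Gm10680 and Gm47528 on the other strand, and 25.5% of its 3′ end words are shared, so some of its reads may belong to those genes.

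Apoa1 encodes apolipoprotein A-I, the main protein of high-density lipoprotein (46228580 to 46230466 on chromosome 9). It stood at 2.31, 3.63 and 5.38 CPM in B6 kidneys and at 0.968, 3.07 and 2.50 CPM in BALB/c. The strains overlapped, with 105 reads in all in B6 and 61 in BALB/c, and the log2 difference was 0.60 ± 0.38 (SE). Apoc3, which encodes an inhibitor of lipoprotein lipase and is not among the 10 genes, lies between them. It averaged 10.4 ± 2.06 CPM in B6 kidneys and 5.28 ± 0.0741 CPM in BALB/c kidneys (SD, n = 3 each), a log2 difference of 0.84 ± 0.27 (SE) that did not pass the test (limma adjusted p = 0.0568). It passed in 3 alternatives: a pseudocount of 5 CPM (0.0474), no trend in the variance prior (0.0447) and without B6 replicate 3 (0.0473). Apoa5 had 0 reads in all 6 libraries.

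**Figure D2:**
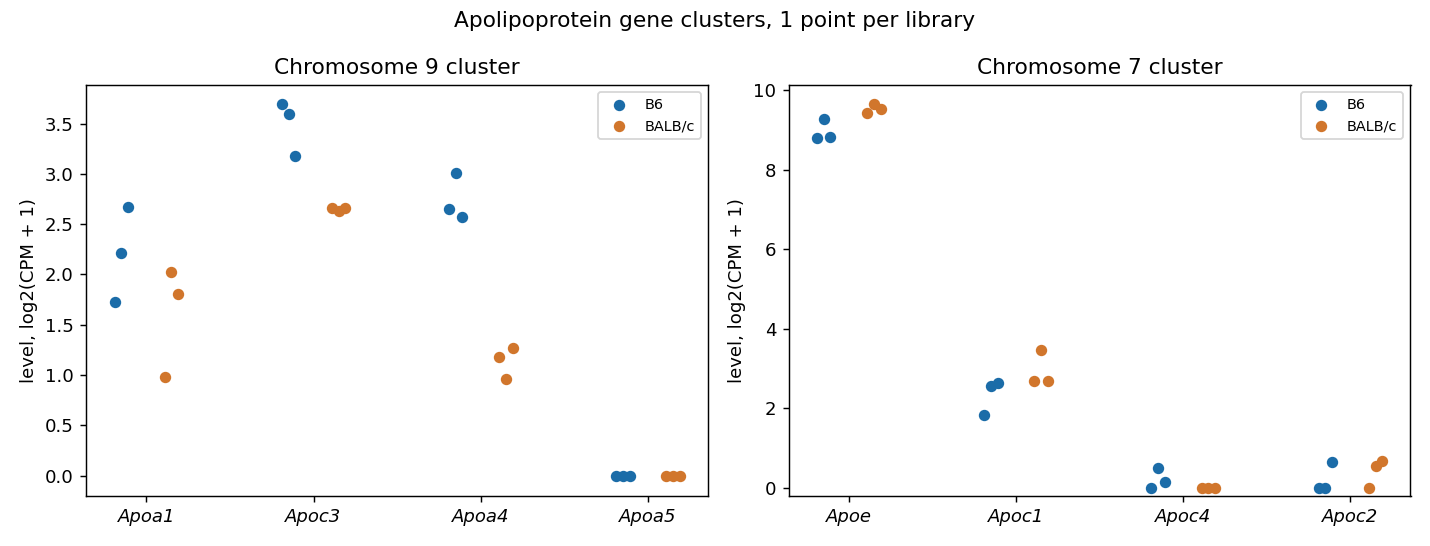
Level in log2(CPM + 1) of the apolipoprotein genes of the chromosome 9 and chromosome 7 clusters by cluster, with 1 point per library and B6 left of BALB/c for each gene. Apoa4 and Apoc3 are higher in B6 without overlap, Apoe and Apoc1 are lower in B6 without overlap, and Apoa5, Apoc4 and Apoc2 are at or near 0.

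Apoe and Apoc1 are neighbours on chromosome 7, 3449 bases apart. Apolipoprotein E is the ligand by which remnant particles bind their receptors on cells, and in many tissues macrophages make it. Apoe stood at 439.8, 618.1 and 452.5 CPM in B6 kidneys and at 689.3, 800.2 and 740.3 CPM in BALB/c. The strains did not overlap, although B6 replicate 2 came near the lowest BALB/c library. The mean was 503.5 ± 99.5 CPM in B6 kidneys and 743.3 ± 55.5 CPM in BALB/c kidneys (SD, n = 3 each), a log2 difference of -0.58 ± 0.11 (SE). Apoe (19696109 to 19699188, minus strand) overlaps no other exons.

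Apoc1 encodes apolipoprotein C-I, a small exchangeable apolipoprotein that slows uptake of lipoproteins by receptors (19689481 to 19692660, minus strand). It stood at 2.53, 4.94 and 5.16 CPM in B6 kidneys and at 5.42, 10.03 and 5.41 CPM in BALB/c. The strains did not overlap, but the highest B6 and the lowest BALB/c library lay close together, and the log2 difference was -0.60 ± 0.33 (SE). Apoc4 and Apoc2, the further genes of this cluster, had 5 and 5 reads in all in B6 and 0 and 10 reads in BALB/c, and lay below the filter.

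Markers of macrophages were set beside Apoe and did not move one way. All 11 of the list had reads, and their summed level was 124.0 to 145.3 CPM in B6 kidneys and 177.2 to 189.2 CPM in BALB/c, without overlap. Csf1r, which encodes the M-CSF receptor, carried this gap, with 63.0 ± 10.1 CPM in B6 kidneys and 118.1 ± 14.96 CPM in BALB/c kidneys (SD, n = 3 each). Its exons overlap those of Hmgxb3, with 100% of its 3′ end words shared, so its reads may belong to that gene. Without Csf1r, left out after its values were seen, the sums overlapped, at 62.96, 71.4 and 70.3 CPM in the B6 libraries and 74.3, 70.7 and 51.9 CPM in the BALB/c libraries. Of the 10 tested markers 2 passed the test, Csf1r and Lyz2, both lower in B6, and 8 did not. Among those 8, the complement gene C1qb (0.60, limma adjusted p = 0.107) and Ms4a7 (1.25, 0.0746) had all B6 libraries above all BALB/c libraries, and the list median was -0.10. Adipocyte markers summed to 28.4 CPM in B6 replicate 2 and to at most 8.71 CPM in any other library. Cfd made up most of the sum in B6 replicate 2, at 18.3 CPM, and Adipoq was also highest there, at 3.33 CPM. Cidec, Cidea and Adrb3 were highest in BALB/c libraries. Without B6 replicate 2 the Apoe difference was -0.73. The part of macrophages and adipocytes in the Apoe difference was not tested.

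Apom encodes apolipoprotein M, a lipocalin that carries sphingosine-1-phosphate on high-density lipoprotein and that kidney tubules are known to make. It stood at 88.6, 105.2 and 101.3 CPM in B6 kidneys and at 106.3, 92.8 and 131.2 CPM in BALB/c. The strains overlapped, and the log2 difference was -0.15 ± 0.13 (SE). The mean was 98.4 ± 8.66 CPM in B6 kidneys and 110.1 ± 19.5 CPM in BALB/c kidneys (SD, n = 3 each), so B6 libraries varied around their mean by 8.81% and BALB/c libraries by 17.7%. Apom lies in the MHC region of chromosome 17 (35128997 to 35132050, minus strand) and overlaps no other exons.

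Apod and Apoh were near the limit of detection. Apod encodes apolipoprotein D, a lipocalin of fibroblasts and glia (chromosome 16, 31296192 to 31314808, minus strand). It had 9, 11 and 10 reads in the B6 libraries and 5, 3 and 2 in the BALB/c libraries, or 1.07 ± 0.0722 and 0.346 ± 0.142 CPM (SD, n = 3 each). The strains did not overlap. Markers of fibroblasts summed to 416.2 to 549.0 CPM in B6 kidneys and 393.5 to 442.3 CPM in BALB/c, with overlap. Apoh encodes beta-2-glycoprotein I, a phospholipid-binding plasma protein (chromosome 11, 108343354 to 108414396, plus strand), and its exons overlap those of Prkca on the other strand. Apoh had 0, 0 and 2 reads in B6 and 0, 3 and 6 reads in BALB/c, lay below the level filter and was not tested.

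**Figure D3:**
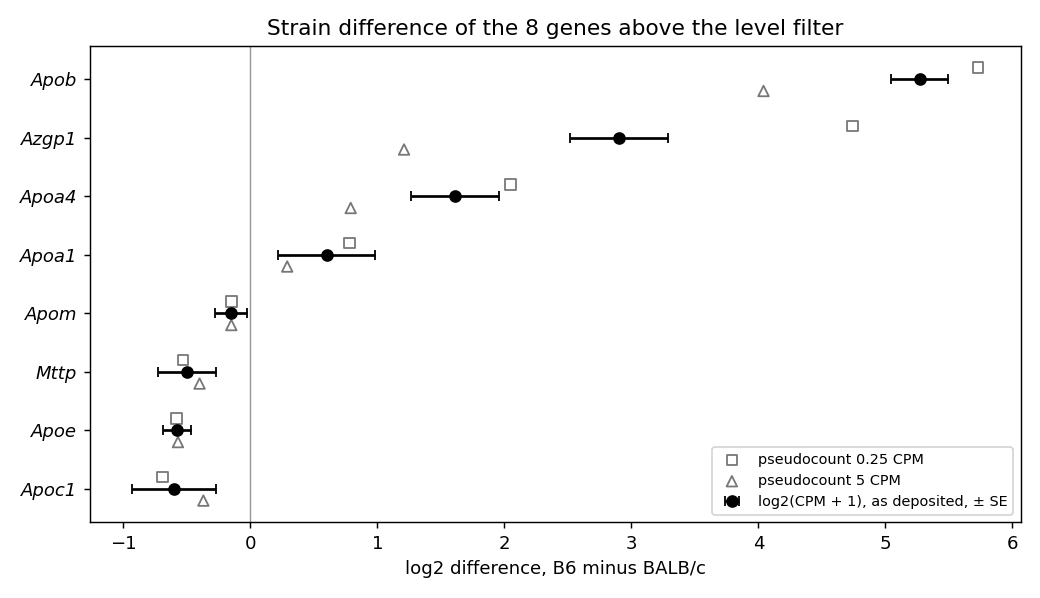
Log2 difference, B6 minus BALB/c, of the 8 genes above the level filter, with bars for ± SE; open marks give the same difference with a pseudocount of 0.25 or 5 CPM. Apob, Azgp1, Apoa4 and Apoa1 lie above 0 and Apom, Mttp, Apoe and Apoc1 below 0 with each pseudocount.

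Among the 8 genes above the filter, 4 differences were positive and 4 negative. The positive ones, of Apob, Azgp1, Apoa4 and Apoa1, ran from 0.60 to 5.27, and the negative ones, of Apom, Mttp, Apoe and Apoc1, from -0.60 to -0.15. The widest spreads between libraries were in genes with few reads, though not every such gene spread widely. Apoa4 in BALB/c, with 35 reads in all, varied by 19.5%. The coefficient of variation of Apoa1 was 40.8% in B6 and 49.8% in BALB/c, against 19.8% and 7.47% for Apoe. Apob varied by 14.8% in B6 and 40.6% in BALB/c, where it had 52 reads in all.

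The genes whose log2 values over the 6 libraries ran most like those of Apob, among 8705 genes averaging 10 CPM or more, were F2r, Iah1 and Rpl21, with Pearson r of 0.9999, 0.9994 and 0.9992. For Apoe they were Dcdc2a, Cds1 and Kbtbd11 (0.9964, 0.9921 and 0.9904), for Apoa4 Ly6e, Serpina1d and Cyp2c44, and for Azgp1 Ccdc32, Chchd2 and Snx6. The points are 3 libraries of each strain, so these values are set mainly by the difference between strains and are a description.

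Genes in the same chromosomal neighbourhood were tested in the same fit. Their counts stand beside 9.09% of all tested genes past the threshold, 4.93% higher and 4.17% lower in B6, and no regional effect was tested. Within 200 kb of Apob 1 gene was tested, Ldah, a lipid droplet-associated hydrolase gene 191272 bases away, which was higher in B6 by 0.75 ± 0.19 (SE, limma adjusted p = 0.0117); leaving out B6 replicate 3 (0.0553) or BALB/c replicate 2 (0.0501) ended the call. Of 11 tested neighbours of Azgp1, 0 passed limma, with adjusted p of 0.553 and more, and 0 had an unadjusted p under 0.05. Of 6 tested neighbours of Mttp, 1 did, Lamtor3, a late endosomal adaptor gene (0.76, limma adjusted p = 0.00715). Of 23 tested neighbours of Apom, 3 were lower in B6: the sialidase gene Neu1 (-0.57), 1110038B12Rik (-1.18) and the MHC class I gene H2-D1 (-1.06).

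Markers of hepatocytes, the main source of apolipoprotein B elsewhere, were set beside Apob. Of 14 listed, 13 were in the files, and their summed level was 138.1 to 157.6 CPM in B6 kidneys and 93.0 to 140.0 CPM in BALB/c, with overlap. Transthyretin, Ttr, made up most of this sum, at 103.7 ± 1.78 CPM in B6 kidneys and 98.4 ± 17.9 CPM in BALB/c kidneys (SD, n = 3 each). Without Ttr, left out after its values were seen, the sums were fully apart. They were 34.3, 52.1 and 51.5 CPM in the B6 libraries and 10.7, 22.4 and 26.2 CPM in the BALB/c libraries. Most of this gap lay in the fibrinogen genes Fgb, Fgg and Fga. Fgb averaged 17.0 CPM in B6 kidneys and 1.02 CPM in BALB/c kidneys, Fgg 7.97 and 1.84, and Fga 3.01 and 0.749. The other markers did not all move with Apob, and Ahsg had a log2 difference of -0.09. The defining hepatocyte genes Tat and Cyp7a1 had 0 reads in all 6 libraries, and Cps1 had 2 reads summed over B6 and 6 over BALB/c. Albumin, Alb, stood at 14.2 ± 1.03 CPM in B6 kidneys and 8.99 ± 3.14 CPM in BALB/c kidneys. Without overlap, 4 markers (Alb, Fga, Fgb and Fgg) were higher and 2 (Asgr1 and Itih1) lower in B6. Over all tested genes, 12.9% were higher and 12.5% lower in B6 without overlap. Asgr1 and Itih1 had 21 and 20 reads in all in B6, and Fga had 21 in BALB/c. Of 8 tested markers, 2 passed the test, beside 9.09% of all tested genes, both fibrinogen genes higher in B6. Fgb had a log2 difference of 3.24 ± 0.38 (SE, limma adjusted p = 2.24e-06) and Fgg one of 1.80 ± 0.43 (0.00806, which ended without BALB/c replicate 1 at 0.0633). The part of hepatocyte RNA in the Apob difference was not tested.

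Proximal tubule markers, whose cells form most of the kidney cortex, summed to 8237 to 8844 CPM in B6 kidneys and 7631 to 8486 CPM in BALB/c, with overlap. Of 11 tested, 2 were higher and 1 was lower in B6; all 3 are named after their values were seen. Slc5a12, a lactate transporter gene, stood at 374.0 ± 69.4 CPM in B6 kidneys and 863.2 ± 17.3 CPM in BALB/c kidneys (SD, n = 3 each), a log2 difference of -1.22 ± 0.11 (SE, limma adjusted p = 2.39e-08). Slc22a8, an organic anion transporter gene, was higher in B6 by 0.39 (limma adjusted p = 0.00812). The other one counted as higher, Slc7a13, passed the level filter through B6 alone, at 3.85 ± 1.05 CPM in B6 kidneys and 0.556 ± 0.141 CPM in BALB/c kidneys, and is given without a test. The megalin and cubilin genes Lrp2 and Cubn, which encode the uptake receptors of filtered apolipoproteins, had 0.12 (limma adjusted p = 0.468) and 0.31 (0.161) and did not pass the test, though Cubn passed it without B6 replicate 3 (0.0304).

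**Figure D4:**
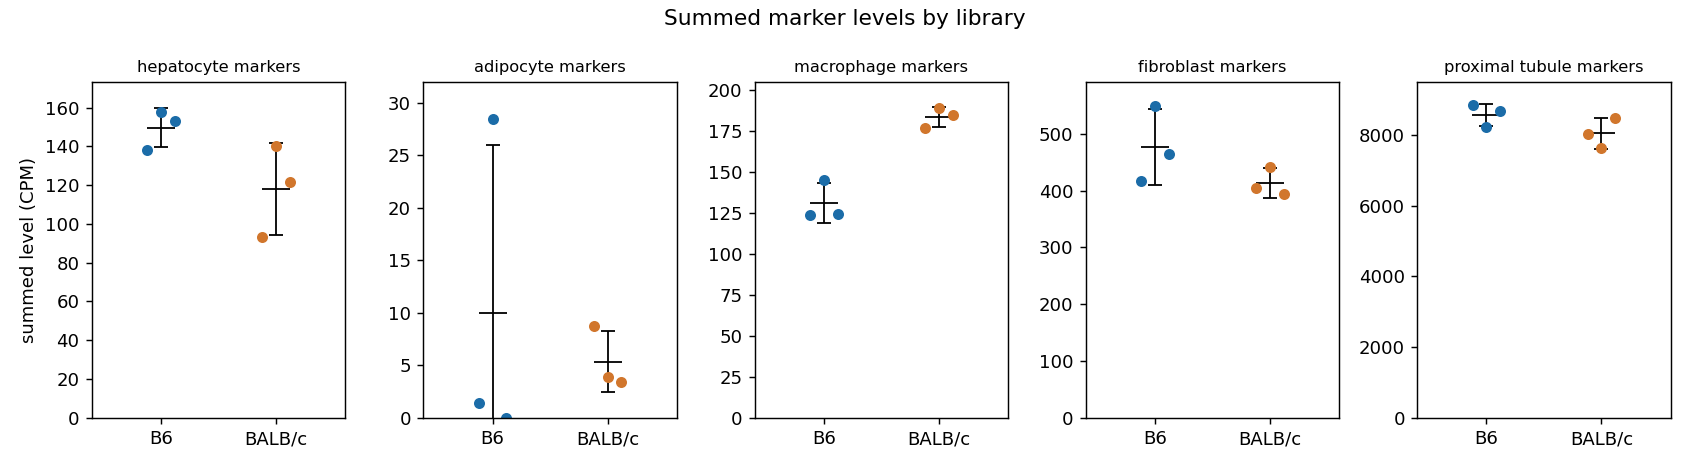
Summed level in CPM (vertical axes, each from 0) of 5 marker lists in every library, with points for libraries and bars for the mean ± SD of 3. The macrophage sum is lower in all B6 libraries than in any BALB/c library but overlaps between the strains without Csf1r. The adipocyte sum is highest in B6 replicate 2 at 28.4 CPM, most of it Cfd.

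Genes around the 10, taken from 8 lists of lipid biology, differed in both directions. Of 119 list genes tested, 12 were higher and 12 lower in B6, or 20.2% beside 9.09% of all genes tested, and their median difference was -0.01 beside 0.00 over all genes. With no trend in the variance prior, 5 were higher and 5 lower. Of the genes given below, Lpl, Pdia4, Ppard, Srebf1, Plin2, Plin5, Fabp4 and Pnpla2 were among those that lost their calls in this way. Lpl, Srebf1, Plin2, Plin5, Fabp4 and Pnpla2 also lost theirs with no filter beyond 1 read. The lists were drawn up with earlier results of these libraries known.

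Of the other apolipoproteins, 3 of 11 were tested, 2 were higher in B6 and 0 lower. Apoa2, the second protein of high-density lipoprotein, stood at 8.07 ± 2.58 CPM in B6 kidneys and 1.66 ± 0.210 CPM in BALB/c kidneys (SD, n = 3 each), a log2 difference of 1.73 ± 0.34 (SE, limma adjusted p = 0.00119). Clu, which encodes clusterin or apolipoprotein J, a secreted chaperone, stood at 263.5 ± 14.7 CPM in B6 kidneys and 156.6 ± 11.7 CPM in BALB/c, a log2 difference of 0.75 ± 0.10 (limma adjusted p = 1.02e-05). Of 14 genes of the apolipoprotein L family 3 were tested and 1 was counted as lower in B6, Apol10b, with -2.02 ± 0.37 (SE). It had 8, 6 and 9 reads in the B6 libraries and 112, 41 and 49 in the BALB/c libraries. Its means were 0.831 ± 0.206 CPM in B6 kidneys and 6.86 ± 3.45 CPM in BALB/c kidneys (SD, n = 3 each). In B6 only replicate 3 reached a log2 value of 1, at 1.006. Apol10b thus passed the level filter through its BALB/c libraries and is given without a test.

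Of 23 genes of lipoprotein assembly and secretion, all tested, 4 were higher and 1 lower in B6, with a median of 0.13. P4hb, the subunit that pairs with the Mttp product, stood at 317.5 ± 5.63 CPM in B6 kidneys and 220.0 ± 9.03 CPM in BALB/c kidneys (SD, n = 3 each), a log2 difference of 0.53 ± 0.09 (SE, limma adjusted p = 3.11e-04) that lost its call with no trend in the variance prior (0.0621). Hspa5, the main chaperone of the endoplasmic reticulum, had 0.98 (2.34e-06) and Mcfd2, part of a cargo receptor for export from it, 0.75 (1.30e-04). Another pair of genes is named after their values were seen. Pdia4, another disulfide isomerase, was higher by 0.58 (limma adjusted p = 0.00604, 0.0516 without B6 replicate 3), and Tm6sf2, needed in liver to fill lipoproteins with lipid, was lower by 1.09 in B6, with 12.99 ± 2.73 CPM in B6 kidneys and 28.6 ± 5.27 CPM in BALB/c kidneys (SD, n = 3 each) and a log2 difference of -1.09 ± 0.21 (SE, limma adjusted p = 0.00118).

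Of 22 tested genes of lipoprotein receptors and uptake, 1 was higher and 0 were lower in B6. Scarb1, which encodes a receptor for high-density lipoprotein, had -0.58 (limma adjusted p = 0.158) and did not pass the test. The list median was 0.03.

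Of 12 tested genes of lipid efflux and lipoprotein remodelling, 1 was higher and 2 lower in B6. Angptl4, a secreted inhibitor of lipoprotein lipase, stood at 4.01 ± 0.186 CPM in B6 kidneys and 24.7 ± 11.1 CPM in BALB/c kidneys (SD, n = 3 each), a log2 difference of -2.25 ± 0.30 (SE, limma adjusted p = 1.15e-05). Lpl, the lipase itself, stood at 1008, 538.3 and 1074 CPM in B6 kidneys and at 475.7, 563.2 and 488.4 CPM in BALB/c. B6 replicate 2, which had the highest adipocyte marker sum, lay among the BALB/c libraries. The log2 difference of 0.72 (limma adjusted p = 0.00483) lost its call without B6 replicate 1 (0.0725). Abca1, which exports cholesterol to apolipoprotein A-I, had -0.09 (limma adjusted p = 0.872), and Pltp, which overlaps Ctsa with all of its 3′ end words shared, -0.20 (0.305). Lcat lay below the filter.

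Of 24 tested transcription factors of apolipoprotein genes, 2 were higher and 1 lower in B6. Hnf4a, an activator of many of the 10 genes in liver, stood at 325.2 ± 22.1 CPM in B6 kidneys and 295.1 ± 45.5 CPM in BALB/c kidneys (SD, n = 3 each), with 0.15 (limma adjusted p = 0.456). Ppara, a receptor for fatty acids, had 0.09 (limma adjusted p = 0.671). Ppard was higher by 0.74 (limma adjusted p = 0.00789, 0.0625 without BALB/c replicate 1), and Srebf1, a regulator of fatty acid synthesis genes whose exons overlap Rai1, by 0.96 (0.0265, 0.0617 to 0.183 on leaving out B6 replicate 1, B6 replicate 2 or BALB/c replicate 1). Mlxipl, a glucose-responsive factor, had -0.72 (0.00875).

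Of 24 tested genes of triglyceride synthesis and lipid droplets, 1 was higher and 5 lower in B6, with a median of -0.21. Mogat1, a monoacylglycerol acyltransferase gene, stood at 20.5 ± 2.38 CPM in B6 kidneys and 50.8 ± 11.3 CPM in BALB/c kidneys (SD, n = 3 each), a log2 difference of -1.25 ± 0.18 (SE, limma adjusted p = 2.98e-05). BC035947 overlaps its exons. Soat1, which esterifies cholesterol, had -0.91 (8.80e-04, 0.0545 with no trend in the variance prior), and Plin2, a coat protein of lipid droplets, was higher by 0.75 (limma adjusted p = 0.00921), and leaving out B6 replicate 3 or BALB/c replicate 3 ended the call (0.0683 and 0.0579). The other genes past the threshold, named after their values were seen, were Plin5 (-1.24), Fabp4 (-0.48) and Pnpla2 (-0.44). Their limma adjusted p were 0.0135, 0.0137 and 0.0487. Plin5 lost its call on leaving out B6 replicate 3, BALB/c replicate 1 or BALB/c replicate 2 (up to 0.0940), Fabp4 without these or B6 replicate 1 (up to 0.0949), and Pnpla2 without any 1 library other than B6 replicate 2.

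Relatives of Apod, Apom and Azgp1 by fold, the lipocalins and the MHC class I-like proteins, had 8 tested genes, 1 higher and 2 lower in B6. The prostaglandin D synthase gene Ptgds, a lipocalin, had -0.84 (limma adjusted p = 0.00253), Procr, the endothelial protein C receptor gene, -1.53 (0.00597), and Fcgrt, the neonatal Fc receptor gene, 0.64 (0.00433, 0.0537 without B6 replicate 1). With no trend in the variance prior Ptgds (0.105), Procr (0.0646) and Fcgrt (0.135) lost their calls, and Procr also with no filter beyond 1 read (0.0509).

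**Figure D5:**
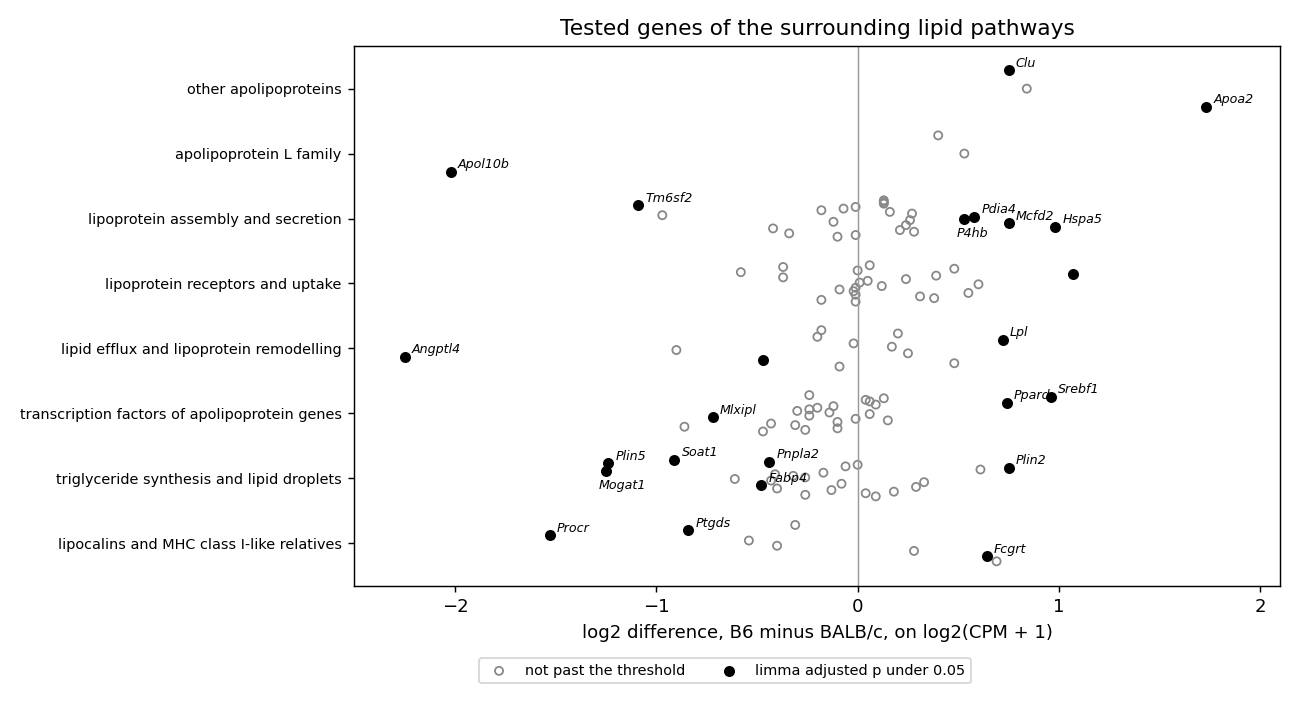
Log2 difference, B6 minus BALB/c, of each tested gene of the 8 lists, 1 row per list; filled points passed limma at an adjusted p under 0.05, and those described in the text are named. Filled points lie on both sides of 0, 12 on each.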

How the data were processed

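Per the labels' protocols, Trizol RNA of kidney was made into Lexogen QuantSeq libraries; per the submitters' processing notes, Bowtie2, bedtools and mm10 were used. For annotation, strand and multiple alignments the sources used here name no setting. The authors deposited 1 log2 value per gene and library, taken from the values themselves to be log2(CPM + 1): in every library, 100% of low values (20 reads or fewer) fell within 0.1 read of a whole read. Count tests planned for whole reads were replaced by limma-voom on recovered reads, as the deposited unit is log2. limma 3.58.1 (R 4.3.3) modelled the deposited log2 values of 13317 genes with strain as sole term and a variance prior following level, contributing 18.4 degrees of freedom; tests are two-sided. The prior weighs more in the variance than a gene's own spread. Whether each library is a separate mouse rests on the series' design text; within a strain, each pair of libraries exceeded counting noise (chi-square over its degrees of freedom 7.93 to 17.1). The fit was tested on simulated data. Coordinates, exon overlaps and 3′ end words (50 bases every 5 bases of the last 300) are from GENCODE M21 (GRCm38). The 10 genes and all lists were chosen with earlier results of these data known. Of each list, the 3 genes with the smallest p past the threshold and a fixed set are named, and some of these are not reported here.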

Additional observations from a re-analysis of the deposited data

How the results depend on the processing

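Of the planned and added alternatives 15 were run, and the 8 tested genes kept their sign in all in which they had a value. Azgp1 was not tested without any 1 B6 library, which left it 2 libraries above the filter. The differences of Apob, Apoa4 and Azgp1 moved with the scale: 5.73, 2.05 and 4.74 with a pseudocount of 0.25 CPM, 4.04, 0.79 and 1.21 with 5 CPM, and 5.91, 2.21 and 6.93 with limma-voom on recovered reads, which was chosen after seeing the data and called 1116 genes. Leaving out a library gave 5.13 to 5.48 for Apob, -0.73 to -0.49 for Apoe, -0.68 to -0.36 for Mttp and -0.26 to -0.02 for Apom. Genes higher and lower in B6 numbered 266 and 227 when the variance prior had no trend (5 and 5 in the lists), 422 to 590 and 333 to 535 when a library was left out, lowest without B6 replicate 1 and BALB/c replicate 1; without BALB/c replicate 2, 369 were lower. In the lists, 7 were lower with no filter beyond 1 read, and 8 to 12 higher and 8 to 14 lower when a library was left out. Of 30 genes past the threshold examined outside the 10, 13 kept their call throughout and 17 lost it under some alternative, 16 of them with no trend in the prior and 10 with no filter beyond 1 read. With a lower pseudocount or other scaling the median of all genes stayed within 0.1. Same-numbered libraries of the strains did not deviate together (correlations 0.009, -0.085 and -0.155 over 8715 genes); with the replicate block 977 genes were called, and 2 list genes, Pnpla2 among them, lost their calls. Count-model tests on recovered reads were not run. Genes below about 1 CPM, Apod and Apoh among them, are limited by depth.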
